A study of Homo sapiens with 4 samples.

Results

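The class 4 semaphorins are 6 human genes, SEMA4A, SEMA4B, SEMA4C, SEMA4D, SEMA4F and SEMA4G, and they were followed here in 786-O cells with and without added PRDM16. They were chosen by name, as every locus of the deposited table whose gene name is one of the 6. Each was found at 1 locus that names no other gene, so 6 of 56753 loci are described. The series has 4 RNA-seq libraries of 786-O, an established cell line from a human clear cell carcinoma of the kidney. The control group (2 libraries) carries a control vector and the other group (2 libraries) carries PRDM16 from a lentivirus, both by stable transduction. PRDM16 is a transcriptional regulator with zinc fingers, and the comparison asks how its overexpression affects the transcriptome of these cells. No source used here names the promoter that drives PRDM16 or says whether the cells were a pool or a clone. Nothing in the labels ties the replicates to separate cultures, and p-values then cover only the spread from library to library, which may be technical.

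Class 4 semaphorins are membrane-anchored ligands with an extracellular sema domain, by which they bind plexin receptors, mainly of the B class, on neighbouring cells or on the same cell. A bound B-class plexin turns off small GTPases of the R-Ras family and, through RhoGEF proteins held at its PDZ-binding tail, activates RhoA. The cell thereby changes its adhesion and its actin skeleton. Some of these ligands are cut from the surface by metalloproteases and then act at a distance. In the kidney, plexin-B2 and its ligands are known for roles in tubule branching, and in carcinomas SEMA4D is known as a signal to endothelial cells through plexin-B1.

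The levels of the 6 genes fell into 3 tiers that were the same in both groups. SEMA4B was abundant, SEMA4C, SEMA4D and SEMA4F were moderate, and SEMA4A and SEMA4G were close to the floor. No member passed the test between the groups (limma, adjusted p over 13246 loci from 0.689 to 0.910). SEMA4F had the largest fitted difference among the 4 tested members, at 7.74 ± 0.359 FPKM with PRDM16 against 9.77 ± 0.666 FPKM in the control vector (SD, n = 2 each). FPKM scale fragments to the length of the transcript and to the size of the library, so levels may be compared between genes.

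The stretches just before the transcription start are shown for 3 members that the results turn on. These are SEMA4B, the abundant member, and SEMA4C and SEMA4F, the tested members whose values were lower in both PRDM16 libraries. Each is the 250 bases before a RefSeq start on GRCh38.p14, written 5′ to 3′ on the gene's strand, with CpG dinucleotides in capitals. The SEMA4B window is at chr15:90184670-90184919 on the plus strand, the SEMA4C window at chr2:96870081-96870330 on the minus strand and the SEMA4F window at chr2:74653997-74654246 on the plus strand.
SEMA4B: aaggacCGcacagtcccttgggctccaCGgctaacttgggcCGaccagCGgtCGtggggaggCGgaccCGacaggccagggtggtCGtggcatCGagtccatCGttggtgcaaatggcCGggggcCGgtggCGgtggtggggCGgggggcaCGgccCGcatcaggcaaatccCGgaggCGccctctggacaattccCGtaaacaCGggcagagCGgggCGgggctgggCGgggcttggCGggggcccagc
SEMA4C: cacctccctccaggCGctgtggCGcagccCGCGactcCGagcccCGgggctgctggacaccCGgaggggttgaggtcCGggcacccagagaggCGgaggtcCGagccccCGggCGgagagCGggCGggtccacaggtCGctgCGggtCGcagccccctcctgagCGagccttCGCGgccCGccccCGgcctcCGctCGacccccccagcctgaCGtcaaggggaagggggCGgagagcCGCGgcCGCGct
SEMA4F: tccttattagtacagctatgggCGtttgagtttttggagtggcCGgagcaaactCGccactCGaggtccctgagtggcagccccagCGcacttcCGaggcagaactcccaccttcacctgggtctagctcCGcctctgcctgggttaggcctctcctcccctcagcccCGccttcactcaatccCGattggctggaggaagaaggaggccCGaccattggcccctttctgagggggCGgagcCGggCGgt
The SEMA4C window held 30 CpG and the SEMA4B window 24, against 13 in SEMA4F and a median of 11 over 35116 RefSeq promoter windows of the same length. Observed over expected CpG was 0.79, 0.77 and 0.54 for SEMA4C, SEMA4B and SEMA4F, beside a median of 0.56. SEMA4B has a further 2 RefSeq starts, with 6 and 29 CpG and ratios of 0.34 and 0.75. Which of its starts the cells used was not measured. The SEMA4C start lies 109 bases from the nearest transcript start in GENCODE 29. The GC box GGGCGG, counted on both strands, occurred 4 times in the SEMA4C window, 3 times in that of SEMA4B and 2 times in that of SEMA4F, and 42.6% of all windows held it. The CCAAT box was found 2 times in the SEMA4F window and in neither of the other printed windows, against 32.0% of all windows. The further SEMA4B windows held 0 and 5 GC boxes, and 1 and 0 CCAAT boxes.

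Windows were also described for the other members. SEMA4A has 4 RefSeq starts, all CpG-poor, with ratios from 0.18 to 0.35. SEMA4G has 2 starts, with ratios of 0.60, inside the range of the printed windows, and 0.41. The single RefSeq start of SEMA4D had a ratio of 0.36 and lies 1776 bases from the nearest transcript start in GENCODE 29, so its window may not be the one these cells used. Because 786-O cells lack functional VHL and keep HIF active, the windows were also searched on both strands for the hypoxia response cores ACGTG and GCGTG. The SEMA4D window held 3 matches to ACGTG, of which 2 overlap in 1 palindromic CACGTG. The fourth window of SEMA4A and the second window of SEMA4G each held 1 match to GCGTG. The windows of SEMA4B, SEMA4C and SEMA4F held no match to either core. Of all windows, 18.5% held ACGTG and 32.2% held GCGTG. A match is only a description of the letters.

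Across the libraries, 23138 to 24490 loci were above 0, and the lowest values placed the other 3 libraries at 1.17 to 1.39 times the depth of control vector replicate 1. In the check of the labels, PRDM16 was 0.0157 and 0.234 FPKM with the control vector, against 1226 and 1146 FPKM in the libraries labelled PRDM16. Most tested markers of the line were high, with PAX8 between 169 and 208 FPKM and VIM between 3330 and 3455 FPKM. EPAS1 was 79.6 and 140.7 FPKM with the control vector, against 74.0 and 63.6 FPKM with PRDM16, so its control vector replicates lay far apart. CDH2 had no value under 128.8 FPKM and KRT8 none under 169 FPKM, but PAX2 was only 4.62 to 5.37 FPKM. The hypoxia marker CA9, also listed as a marker of the line, was below the filter at no more than 0.629 FPKM. Among single-name endothelial, neuron and glia, and fibroblast markers, TIE1, RBFOX3, SNAP25, COL1A1 and LUM passed the filter, with means from 1.30 to 2.60 FPKM. Of 8 leukocyte markers none reached a mean of 1 FPKM, their summed level was 0.437 and 0.477 FPKM with the control vector, against 0.396 and 0.209 FPKM with PRDM16, and CD3D, CD3E, CD2 and MS4A1 were listed at 0 in all 4 libraries. That list bears on SEMA4A and SEMA4D, which are best known from lymphocytes and myeloid cells. In bulk RNA, fewer cells of a type and less RNA per cell cannot be told apart.

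SEMA4B encodes a ligand whose tail binds the scaffold protein PSD-95 in neurons and which epithelial cells also make. Its gene (locus XLOC_017675) spans chromosome 15 from 90160604 to 90229679, plus strand. It was 159.8 and 161 FPKM in the control vector libraries and 159 and 168 FPKM in the PRDM16 libraries. The 4 values lay close together and the groups overlapped, with PRDM16 replicate 2 the highest. The log2 change of FPKM + 1 was 0.03 (SE 0.08), with a 95% interval from -0.19 to 0.25 and a limma adjusted p of 0.909. Its sign was not stable, as it was below 0 after quantile normalization and without PRDM16 replicate 2. SEMA4B stood at the 97.3 to 97.5 percentile among 15914 single-name protein-coding loci and made up 82.1% to 85.6% of the summed FPKM of the 6 genes.

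SEMA4C encodes a high-affinity ligand of plexin-B2. It spans chromosome 2 from 96859716 to 96870757, minus strand (locus XLOC_030582). It was 12.3 and 13.9 FPKM with the control vector, against 11.8 and 10.9 FPKM with PRDM16. Both PRDM16 libraries were below both control vector libraries, although control vector replicate 1 and PRDM16 replicate 1 were close to each other. The log2 change was -0.19 (SE 0.11, interval -0.48 to 0.10), with a limma adjusted p of 0.689. Without control vector replicate 2 it was -0.11 on the same scale.

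SEMA4F encodes a ligand described in the nervous system and in prostate carcinoma. It is also on chromosome 2, from 74654228 to 74683853, plus strand (locus XLOC_028358). It was 9.30 and 10.2 FPKM with the control vector, against 7.99 and 7.49 FPKM with PRDM16. Both PRDM16 libraries were lower than both control vector libraries, and the gap between the groups was wider than either pair of replicates. The means differed 1.26-fold. The log2 change was -0.30 (SE 0.10, interval -0.58 to -0.02), with an unadjusted p of 0.0386 and an adjusted p of 0.689 in limma. Of all tested loci, 6.12% had an unadjusted p under 0.05 (3.7% with lower values in PRDM16), and 0.0226% passed at an adjusted p under 0.05. SEMA4F was below the control vector in each setting and with any 1 library left out, with log2 changes from -0.36 to -0.24. As its groups did not overlap, leaving out a library could not change this direction. With the replicate number as a block, the interval was -0.69 to 0.09 and the unadjusted limma p was 0.101.

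SEMA4D encodes CD100, a ligand of plexin-B1, plexin-B2 and, on B cells, CD72. It spans chromosome 9 from 89360787 to 89498130, minus strand (locus XLOC_053153), and has 24 annotated transcripts, whose single values are not in the table used. It was 9.27 and 10.3 FPKM with the control vector, against 9.51 and 9.48 FPKM with PRDM16. Both PRDM16 values fell between the control vector values, so the groups overlapped. The log2 change was -0.04 (SE 0.10, interval -0.30 to 0.23, limma adjusted p = 0.910), and it was 0.03 without control vector replicate 2.

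SEMA4A, a ligand of plexin-D1 and B-class plexins that is known for acting on T cells, and SEMA4G, a relative of SEMA4C, were below the filter of a mean of 1 FPKM and were not in the main test. SEMA4A (chromosome 1, 156147366 to 156177752, plus strand, locus XLOC_001628) was 0.1998 and 0.244 FPKM with the control vector, against 0.0634 and 0.189 FPKM with PRDM16. Its PRDM16 libraries were both lower, but PRDM16 replicate 2 was nearly level with control vector replicate 1. SEMA4G (chromosome 10, 100969518 to 100985871, plus strand, locus XLOC_005950) was 0.188 and 0.350 FPKM with the control vector, against 0.313 and 0.148 FPKM with PRDM16, with overlapping groups. With loci of any level tested, the log2 change was -0.12 for SEMA4A and -0.05 for SEMA4G (limma adjusted p = 0.745 and 0.907). SEMA4G shares 1170 exonic bases with MRPL43, a gene for a mitochondrial ribosomal protein on the opposite strand, which was 66.8 to 76.0 FPKM. No source used here says whether the counting used strand, and without it reads from the shared bases cannot be assigned to either gene.

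**Figure D1:**
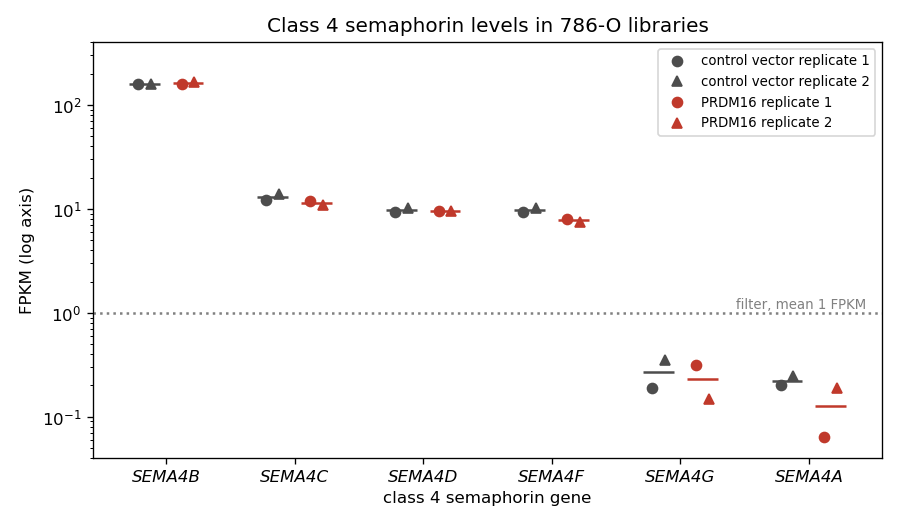
FPKM (log axis) of the 6 class 4 semaphorin genes in each library, ordered by mean level. Circles are replicate 1, triangles replicate 2 and lines group means, in grey for the control vector and red for PRDM16. SEMA4B lies at 159 to 168 FPKM, the moderate genes between 7.49 and 13.9 FPKM and the lowest pair under 0.4 FPKM, below the dotted filter line at 1 FPKM.

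The order of the levels was SEMA4B, SEMA4C, SEMA4D, SEMA4F, SEMA4G and SEMA4A by the mean over the 4 libraries. SEMA4B exceeded SEMA4C by 11.6 to 15.4 times within a library. SEMA4C was above SEMA4D in each library, by 1.15 to 1.35 times. SEMA4D and SEMA4F did not differ beyond their spread in the control vector, at 9.77 ± 0.704 and 9.77 ± 0.666 FPKM, and SEMA4F was the lower of the pair in both PRDM16 libraries. SEMA4G and SEMA4A did not differ beyond their spread in either group. Over all 6 genes, SEMA4A, SEMA4C and SEMA4F lay lower in both PRDM16 libraries and none lay higher in both. Among 28335 loci above 0 in at least 1 library, 17.7% lay lower in both and 15.7% higher in both. Of the 4 tested members, 2 lay lower in both, beside 20.3% of tested loci, and 3 had a lower and 1 a higher fitted mean, beside 49.3% lower. The median log2 change was -0.11 over the 4, beside 0.00399 over all tested loci.

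**Figure D2:**
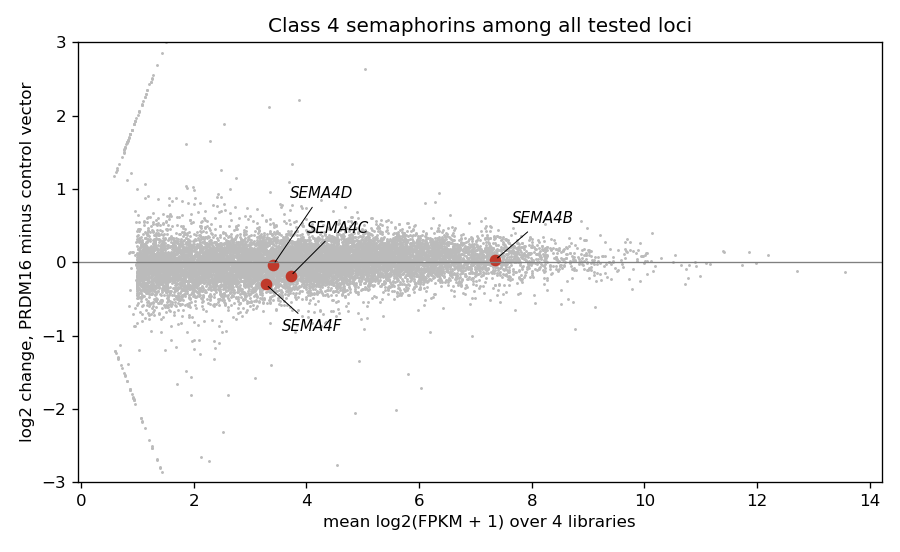
Log2 change of FPKM + 1 (PRDM16 minus control vector) against mean log2(FPKM + 1) for tested loci, each a grey point, with the 4 tested class 4 semaphorins in red. PRDM16 itself and 29 other loci beyond ±3 are not drawn. The red points lie between -0.30 and 0.03, inside the cloud of loci of like level.

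Control vector replicate 2 held the highest value of 5 of the 6 members, all except SEMA4B. SEMA4A and SEMA4G among these were below the filter, and the share over all loci was computed for tested loci only. Of the tested members, SEMA4C, SEMA4D and SEMA4F were highest in that library, beside 33.9% of all tested loci. The part of control vector replicate 2 in the lower PRDM16 values was not tested beyond leaving it out. Without it, the log2 changes were -0.24 for SEMA4F, -0.11 for SEMA4C, 0.03 for SEMA4D and 0.03 for SEMA4B.

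Ratios between members within a library do not depend on how libraries were scaled to each other. SEMA4D over SEMA4F was 0.998 and 1.003 in the control vector and 1.19 and 1.27 with PRDM16. The control vector ratios were nearly equal, and both PRDM16 ratios were above them. Of the pairs computed, this one had the control vector ratios closest to each other. SEMA4C over SEMA4F was 1.32 and 1.35 against 1.48 and 1.45, and SEMA4C over SEMA4D was 1.32 and 1.35 against 1.24 and 1.15. SEMA4B over SEMA4F was 17.2 and 15.7 against 19.9 and 22.4. SEMA4B over SEMA4C was 13.0 and 11.6 against 13.5 and 15.4, and SEMA4B over SEMA4D was 17.2 and 15.7 against 16.8 and 17.7, with overlap only in the last of these ratios. Ratios of other gene pairs were not computed, so nothing is read from how many of these separate. These ratios share members and so are not independent of each other. The smallest p that a two-sided exact permutation test allows here is 0.333, and they are given as values. SEMA4F was a smaller part of the family RNA with PRDM16, at 4.23% and 3.82% of the summed FPKM against 4.87% and 5.23%.

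**Figure D3:**
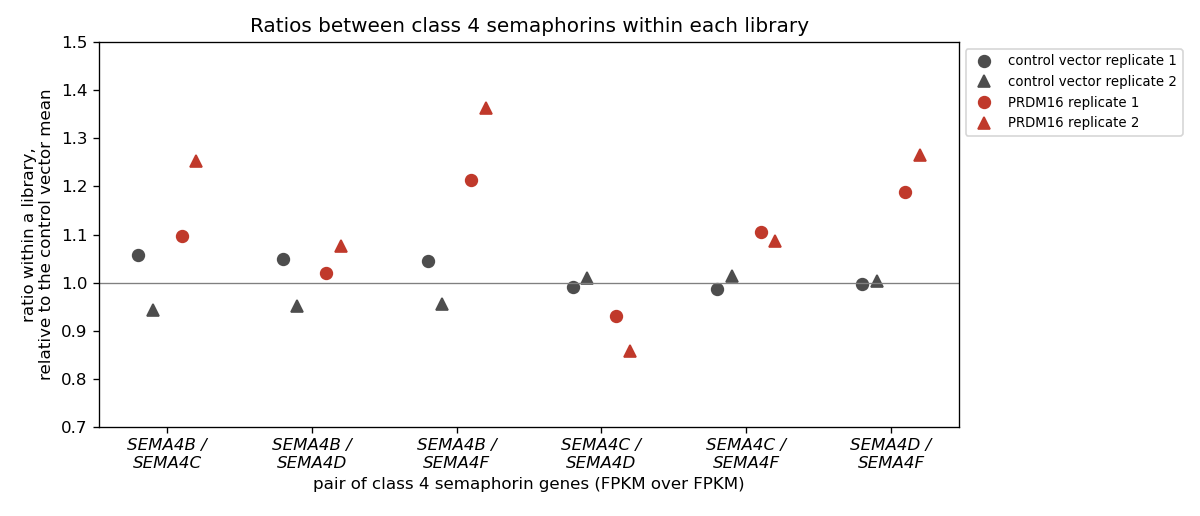
Ratio of FPKM between each pair of tested class 4 semaphorins within a library, divided by the mean ratio of the control vector libraries. Circles are replicate 1 and triangles replicate 2, in grey for the control vector and red for PRDM16. SEMA4D over SEMA4F lies at 0.997 and 1.003 in the control vector and at 1.19 and 1.27 with PRDM16, while the groups overlap for SEMA4B over SEMA4D.

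The receptors of these ligands had lower fitted means with PRDM16 in all 4 tested cases, and none passed. PLXNB2, which encodes the plexin bound by SEMA4C and SEMA4D, was 99.0 and 116 FPKM with the control vector, against 86.4 and 78.6 FPKM with PRDM16, without overlap. The fitted log2 change, -0.38 (SE 0.12), had a limma adjusted p of 0.689. It was the most abundant plexin among these receptors, and SEMA4B was the only class 4 ligand above it. PLXND1, a receptor of SEMA4A, was 12.8 and 13.2 FPKM against 9.89 and 11.2 FPKM, again without overlap. PLXNB1, the main receptor of SEMA4D, was 5.87 and 7.20 FPKM against 4.64 and 6.97 FPKM, with overlap. NRP1, a co-receptor of semaphorins, was 86.2 and 70.0 FPKM against 72.7 and 68.1 FPKM, also with overlap. PLXNB3 shares its locus with SRPK3, and that locus was at 6.07 and 6.65 against 5.02 and 5.18 FPKM. The B-cell receptor CD72 was below the filter, at no more than 0.0924 FPKM. Of the 4 tested receptors, 2 had both PRDM16 values below both control vector values, and the 4 had a median log2 change of -0.22. Over all tested loci, 20.3% lay lower in both PRDM16 libraries and 49.3% had a lower fitted mean.

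**Figure D4:**
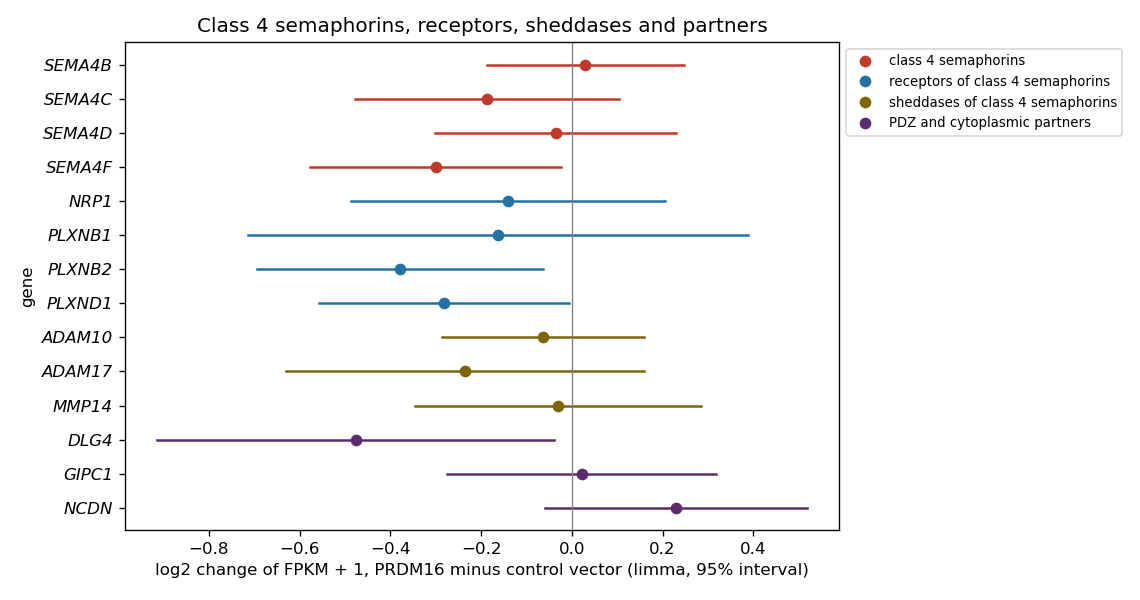
Log2 change of FPKM + 1 (PRDM16 minus control vector) with its 95% limma interval for the tested class 4 semaphorins, their receptors, metalloproteases that cut them and cytoplasmic partners. Points are fitted changes and lines intervals, coloured by gene group. The unadjusted intervals of SEMA4F, PLXNB2, PLXND1 and DLG4 lie below 0, and no gene shown passed after adjustment. Over all tested loci, 3.7% had an unadjusted limma p under 0.05 with lower values in PRDM16.

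Genes of plexin-B signalling were split in direction. Of 21 listed, 17 were tested, 9 had a lower and 8 a higher fitted mean, 7 lay lower and 2 higher in both PRDM16 libraries, and none passed. The shares over all tested loci were 20.3% lower in both and 21.1% higher in both. The median log2 change was -0.00284. RHOA, the GTPase activated downstream of B-class plexins, was 499.8 and 476 FPKM with the control vector, against 494 and 516 FPKM with PRDM16. MET, the receptor tyrosine kinase that pairs with plexin-B1, was 166 and 162 FPKM against 159 and 137 FPKM. RAC1, which encodes a small GTPase that acts on the actin skeleton, was 146 and 126 against 142 and 149 FPKM, and the adaptor gene GRB2 was 79.3 and 68.1 against 83.6 and 81.3 FPKM. MRAS, a GTPase of the R-Ras family, was 31.4 and 30.3 FPKM against 21.0 and 19.3 FPKM. It was singled out after the values were seen, as the member of this list with the smallest p, and the limma fit gave a log2 change of -0.59 (SE 0.09, adjusted p = 0.657).

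The metalloprotease genes ADAM10, ADAM17 and MMP14, whose products cut membrane proteins from the cell surface, all had lower fitted means and overlapping groups. Their log2 changes ran from -0.24 to -0.03. MMP14, the membrane-type protease that releases SEMA4D, was 166 and 195 FPKM against 186 and 167 FPKM. ADAM10 was 163 and 169 against 163 and 154 FPKM, and ADAM17 was 18.9 and 23.9 against 19.1 and 16.7 FPKM. Among cytoplasmic partners, DLG4, which encodes PSD-95, was 5.97 and 7.92 FPKM with the control vector, against 5.05 and 4.31 FPKM with PRDM16, without overlap. NCDN, which encodes norbin, a partner of SEMA4C, was 17.8 and 16.2 against 18.9 and 21.3 FPKM, the other way and also without overlap. GIPC1, another SEMA4C partner, was 140.2 and 118 against 132 and 130.0 FPKM. None of these 6 genes passed (limma adjusted p from 0.689 to 0.953). Over all tested loci, 49.3% had a lower fitted mean, 20.3% lay lower in both PRDM16 libraries and 21.1% higher in both.

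Of 14 semaphorin genes outside class 4, 11 were tested, and 10 had a lower and 1 a higher fitted mean, beside 49.3% lower over all tested loci. Their changes ranged from -0.94 to 0.46 on the log2 scale, beside -0.30 to 0.03 for class 4, and none passed. The most abundant was the secreted SEMA3C, at 227 and 270.3 FPKM against 244 and 190.3 FPKM, the only semaphorin gene measured above SEMA4B in each library. SEMA7A, a lipid-anchored semaphorin, was 76.5 and 76.7 against 113 and 99.8 FPKM, the only tested one with a higher mean. SEMA5A was 54.0 and 49.8 against 36.9 and 25.4 FPKM, and SEMA3F was 14.8 and 21.2 against 17.9 and 14.8 FPKM. Whether class 4 differed from the other classes was not tested.

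The patterns of the tested members over the 4 libraries were compared with those of 38 tested genes from these lists, by the Euclidean distance between log2(FPKM + 1) values centred on each gene's mean. ERBB2, a receptor tyrosine kinase that pairs with B-class plexins, was nearest to SEMA4F and to SEMA4C, at distances of 0.0608 and 0.0936. It was 18.7 and 19.8 FPKM with the control vector, against 16.4 and 15.6 FPKM with PRDM16. The second nearest were PLXNB2 for SEMA4F (0.114) and ARHGEF11, a RhoGEF gene, for SEMA4C (0.122). SEMA4F and SEMA4C were 0.118 apart from each other, the smallest distance between members, and SEMA4F and SEMA4B were farthest apart at 0.358. SEMA4D was nearest to RRAS2 (0.0343) and SEMA6B (0.0450), and SEMA4B to RHOA (0.0588) and ARHGEF12 (0.0634). All of these varied little on this scale. SEMA6B ran from 0.934 to 1.20 FPKM, a level at which adding 1 FPKM narrows the differences. With 4 libraries, genes with small changes lie close together whatever they do.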

How the data were processed

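Total RNA of 786-O cells was sequenced in 4 libraries, and the values are those the authors deposited. The submitters' processing notes list hg38 as the build, with Cuffdiff, Cufflinks 2.2.1, TopHat2 2.1.0 and Trim Galore as tools. The deposited values were taken as FPKM, from the tools named and because they hold fractions and each library adds up to 556213 to 574003, since the table's header names no unit. Absolute depth is unknown, so no counting interval is given.

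Loci with a mean of at least 1 FPKM were tested with limma 3.58.1 (R 4.3.3) on log2(FPKM + 1), with a variance trend, a two-sided test and Benjamini-Hochberg adjustment at 0.05. This scale understates changes of low genes. The test was checked on simulated data, in which every planted log2 change was larger than that of any member. That check therefore does not show whether changes as small as those of the members would be called. Python 3.11.15, numpy 2.4.6, pandas 2.3.3 and matplotlib 3.10.9 were used. Coordinates are from GENCODE 29 on GRCh38, and promoter sequences are from RefSeq, found for all 6 members.

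The members and lists were chosen with earlier results of these data known. Named genes were the members, the 4 most abundant tested genes of each other list and the 2 nearest in pattern to each tested member. Alternatives were other pseudocounts, filters, scalings and variance models, the replicate number as a block and each library left out.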

Additional observations from a re-analysis of the deposited data

How the results depend on the processing

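No class 4 semaphorin was called in any of the 14 alternatives, and SEMA4F and SEMA4C stayed below the control vector in all 14. Leaving out a library could not change the direction of SEMA4F and SEMA4C, whose groups did not overlap. The log2 change of SEMA4B was -0.00696 after quantile normalization and ran from -0.00789 (without PRDM16 replicate 2) to 0.067 (without PRDM16 replicate 1) with 1 library left out. That of SEMA4D ran from -0.103 to 0.0308 (without control vector replicate 2). Over all loci 3 were called. There were 5 with a pseudocount of 0.1, 1 with all loci above 0 tested, 6 without a variance trend and 5 with robust variances. The replicate block also gave 5, and it changed no call among the members. Same-numbered libraries showed no shared deviation (correlation -0.0584 over 13246 loci). With 2 libraries per group this cannot show whether they were prepared together, and the labels do not say. Leaving out a library gave 16 to 39 calls, namely 39 and 30 without control vector replicates 1 and 2 and 18 and 16 without PRDM16 replicates 1 and 2, where the lone library is assumed to vary like the other group. Library scaling moved the median of all loci by less than 0.1 on the log2 scale. The count-based tool planned for a count table was not run. The cause of these shifts was not tested. The unknown depth limits what can be said of SEMA4A and SEMA4G.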
